A study of Mus musculus with 4 samples.

Results

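Peg3, Usp29, Zim1, Snrpn, Ndn, Magel2, Nnat, Impact, Zdbf2 and Nap1l5 are imprinted mouse genes that lie outside the Mest, Plagl1, Peg10, Igf2 and Dlk1 loci. They were taken by symbol, each from the row of its Ensembl identifier in GENCODE M21 (GRCm38), and make up 10 of the 54838 genes counted in each library. Their RNA was compared between p300 knock-in cells and wild-type cells. The knock-in line, MLC460, was made with CRISPR/Cas9 and carries monomeric enhanced green fluorescent protein at the N-terminus of endogenous p300, a histone acetyltransferase and transcriptional coactivator. It is a single line, so whatever arose while it was derived cannot be told apart from the tag. The wild-type cells are E14 embryonic stem cells (E14Tg2a.4, strain 129/Ola), and the knock-in carries the same cell and strain labels. Both were grown on gelatin without feeder cells being named, in medium with 15% serum and LIF at 1000 U/ml. There were 2 biological replicates of each line, sequenced as TruSeq libraries from 1 ug of total RNA, and the comparison asks how the tagged line differs from its parent.

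Imprinted genes are transcribed mainly from the copy inherited from 1 parent. Methyl groups placed on DNA in the egg or sperm mark the copies, and proteins such as ZFP57, ZFP445 and TRIM28 protect these marks after fertilization, also in embryonic stem cells. In most domains considered here the maternal copy is the methylated and silent one. Zim1 departs from the rest: in mouse embryos it is described as expressed from the maternal copy. The counts do not separate the parental copies, so only the total RNA of each gene was measured.

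Peg3 and Usp29 start back to back, with 146 bases between them in GENCODE. That stretch, chr7:6730432-6730577 on GRCm38.p6 (reverse strand, the strand of Peg3), is shown from the RefSeq promoter table with its 5 CpG dinucleotides, the sites that DNA methylation uses, in capitals. The 250 bases before the start of Nnat, chr2:157559828-157560077 (forward strand), are shown because Nnat is among the genes whose call changed with the library left out. Their capitals mark CGCATGCG, a palindrome at the centre of the known recognition sequence of the transcription factor NRF1.
Peg3 and Usp29: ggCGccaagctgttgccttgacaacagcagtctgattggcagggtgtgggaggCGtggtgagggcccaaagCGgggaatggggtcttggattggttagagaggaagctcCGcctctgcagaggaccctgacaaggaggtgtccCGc
Nnat: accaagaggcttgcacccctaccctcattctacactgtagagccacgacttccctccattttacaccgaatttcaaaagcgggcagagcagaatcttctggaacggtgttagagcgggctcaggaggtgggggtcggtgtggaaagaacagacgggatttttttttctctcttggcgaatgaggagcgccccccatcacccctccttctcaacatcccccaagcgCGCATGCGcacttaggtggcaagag

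The RefSeq table (GRCm38.p6, 250 bases before to 50 after each start) held 9 of the 10 genes, with 13 start windows, and Impact was not among them. CGCATGCG reads the same on both strands. It was searched because it had been seen when these sequences were read, so its count is a description only. It stood in the windows of Snrpn, Ndn and Nnat, at all 4 annotated starts of Snrpn, and in 6 of the 13 windows. Among all 32851 windows of the table, 1.87% held it, and among all genes 2.07%. The sites are shown with the palindrome in capitals, and the 3 Snrpn starts other than the one at chr7:60005150-60005174 are near copies of each other, so they do not count as separate cases.
Snrpn, chr7:60005150-60005174, reverse strand: attgcctgggaCGCATGCGtaggga
Snrpn, chr7:60048031-60048060, reverse strand: gcaaacatgcaCGCATGCGtcgttgaaggt
Snrpn, chr7:60140285-60140314, reverse strand: gcaaacatccaCGCATGCGtgatgggaggg
Snrpn, chr7:60450222-60450251, reverse strand: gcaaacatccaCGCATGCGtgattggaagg
Ndn, chr7:62348243-62348272, forward strand: gcttcccaacaCGCATGCGcaatatcgcat
Nnat, chr2:157560042-157560071, forward strand: tcccccaagcgCGCATGCGcacttaggtgg

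The hexamer TGCCGC, the core that ZFP57 is known to bind, was searched on both strands (its other strand reads GCGGCA). It stood in the windows of Zim1, Snrpn, Nnat, Zdbf2 and Nap1l5, 5 of 9 genes, where 13.1% of all genes in the table held it. For Zdbf2 it stood only in the upstream window, not in the one at the start of the counted gene. The hexamer itself holds a CpG. The windows with it held 20 CpG for Zim1, 7 for Snrpn, 17 for Nnat, 15 for Zdbf2 and 17 for Nap1l5. The share over all genes was not matched for CpG, so the count is a description only. It did not overlap the palindrome at any site shown. The windows held between 2 CpG, at 1 start of Snrpn, and 38, at the downstream start of Zdbf2, against a median of 7 over all windows.

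Each library held between 18946731 and 26553998 reads counted in genes. Wild-type 2 stood apart from the other libraries: its log2 difference from their mean followed the GC content of transcripts across 15181 genes with a Spearman rho of 0.65, against -0.43 to -0.27 in the other libraries, genes being no independent replicates. The chi-square per degree of freedom of the counts within a pair was 6.15 for the knock-in libraries and 48.8 for the wild-type libraries, so the libraries of each pair differ beyond sampling noise. Results that rest on wild-type 2 are therefore given with and without it, and beside an offset that removes each library's GC trend. All 8 embryonic stem cell markers were present, led by Dppa5a with 1304 and 1187 CPM in knock-in libraries and 1130 and 1103 CPM in wild-type libraries, and Esrrb with 908 and 864 CPM in knock-in libraries and 746 and 864 CPM in wild-type libraries.

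Per length of exon, the 10 genes spanned a range of about 1170-fold in knock-in cells, from Impact down to Usp29. Part of the reads of Usp29 was set aside, as described below, so the range may be narrower. Levels are given here as RPKM, CPM (each count as a share of the TMM-scaled library) divided by exon length in kilobases. Impact, whose protein binds GCN1 and restrains the amino acid sensing kinase GCN2, was at the top with 49.5 and 44.8 RPKM in knock-in libraries and 35.2 and 29.7 RPKM in wild-type libraries. Zdbf2, a DBF-type zinc finger gene that affects growth after birth in mice, followed with 10.4 and 12.4 RPKM in knock-in libraries and 11.1 and 7.50 RPKM in wild-type libraries. Snrpn, which encodes the splicing protein SmN, had 7.30 and 7.09 RPKM in knock-in libraries and 7.07 and 7.82 RPKM in wild-type libraries. In wild-type cells the libraries of Zdbf2 and Snrpn overlapped, whereas in knock-in cells they did not, and under the GC offset they were separate in both lines. However, 34.1% of the exon bases of Snrpn are shared with other annotated genes, against 0.78% for Zdbf2. Reads there are set aside while RPKM divides by the full exon length. The level of Snrpn is therefore understated, and its order beside Zdbf2 is not settled.

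Peg3 and Nnat stood next, and their order differed between the lines without the GC offset. Peg3, a zinc finger gene, had 3.36 and 3.99 RPKM in knock-in libraries and 3.87 and 3.08 RPKM in wild-type libraries. Nnat, which encodes the small endoplasmic reticulum membrane protein neuronatin, had 3.14 and 3.22 RPKM in knock-in libraries and 4.98 and 6.98 RPKM in wild-type libraries. In knock-in cells both Nnat libraries lay under both Peg3 libraries, and in wild-type cells both lay above them. Under the GC offset the knock-in libraries overlapped, with 3.45 and 3.48 RPKM for Nnat against 3.36 and 3.90 RPKM for Peg3, so the swap depends on the scaling. The other 5 genes were under 1 RPKM on average. Ndn averaged 0.688 RPKM in knock-in and 0.989 RPKM in wild-type cells, and Nap1l5 averaged 0.328 RPKM in knock-in and 0.468 RPKM in wild-type cells. Zim1 averaged 0.130 RPKM in knock-in and 0.131 RPKM in wild-type cells. Magel2 averaged 0.0879 RPKM in knock-in and 0.0392 RPKM in wild-type cells, and Usp29 averaged 0.0402 RPKM in knock-in and 0.0434 RPKM in wild-type cells. In wild-type cells the libraries of Usp29 and Magel2 overlapped, and the levels of the remaining neighbours in the order were separate within each line. However, 14.8% of the exon bases of Usp29 are shared with other annotated genes, and reads there are set aside. The level of Usp29 may therefore be understated, and its order beside Magel2 and Zim1 is not settled.

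**Figure D1:**
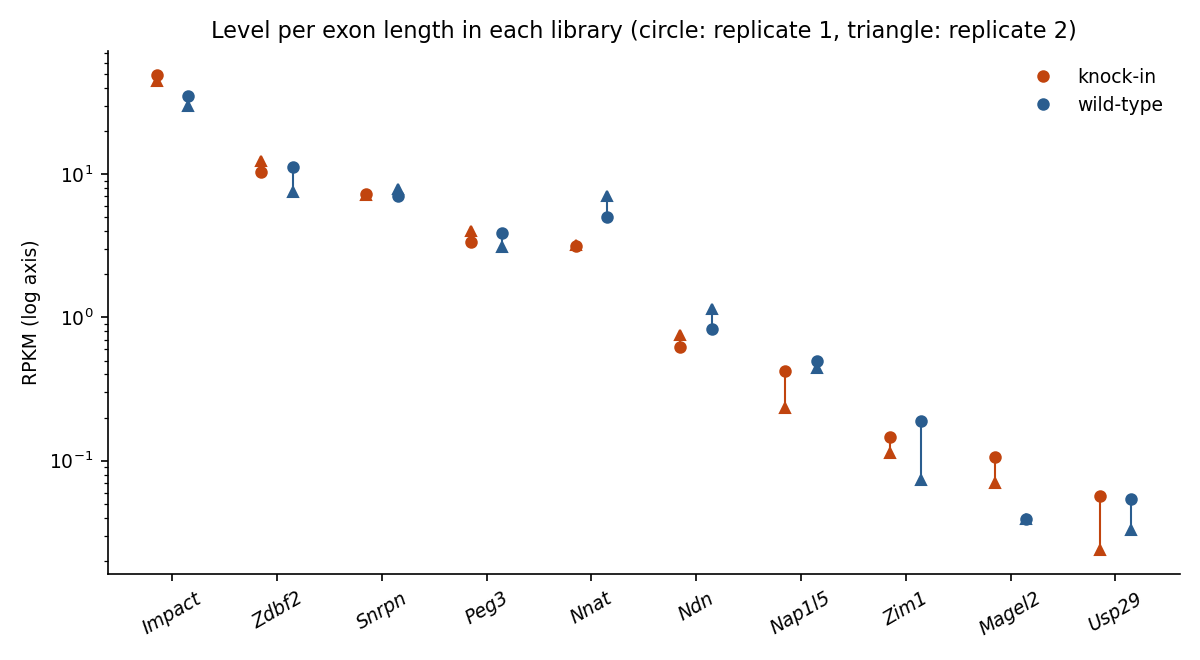
Level per exon length (RPKM, log axis) of the 10 genes in each library, with knock-in left of wild-type for each gene, circles for replicate 1 and triangles for replicate 2. Impact leads in both lines, and, without the GC offset, Nnat lies below Peg3 in knock-in cells and above it in wild-type cells.

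None of the 10 genes passed an adjusted p of 0.05 between the lines. Magel2 was too low for the count filter, so 9 were tested, and edgeR's quasi-likelihood test with Benjamini-Hochberg adjustment over 15191 genes called 10 genes in all, 0.0658% of those tested (0.00658% higher and 0.0592% lower). With the GC offset, none of the 9 passed either, where 1.21% of genes were called (0.343% higher and 0.863% lower). Among the 9, Nnat and Impact had an unadjusted p under 0.05, where 10.9% of all tested genes had one, and DESeq2 also called none. Both knock-in libraries lay above both wild-type libraries for 1 of the 9, Impact, and below them for 3, Ndn, Nnat and Nap1l5, a share close to the 47.4% of all tested genes whose groups did not overlap (50.2% with the offset). The median log2 fold change of the 9 was -0.05, against 0.00098 for all tested genes, and their values ran from -0.91 to 0.54. With replicates of only 2 a line, an exact permutation test of a single value cannot give a two-sided p below 0.333, so ratios within libraries are given below with no test.

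**Figure D2:**
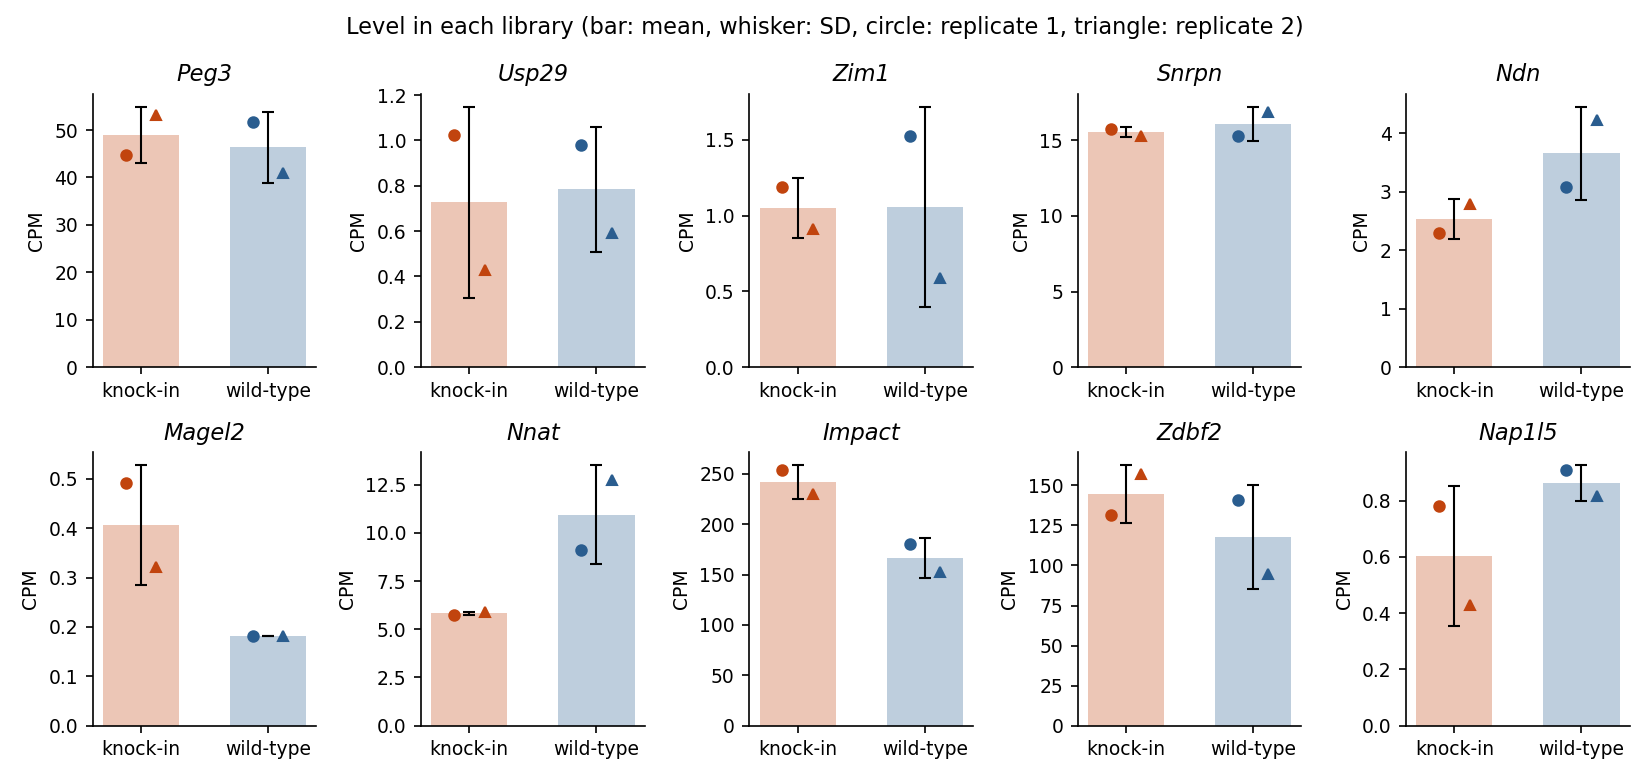
CPM of each of the 10 genes in each library, with knock-in left of wild-type, bars at the mean, whiskers of 1 SD, circles for replicate 1 and triangles for replicate 2 (n = 2 each). Nnat is lower in knock-in cells and Impact higher, with no overlap between the lines for these genes.

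Nnat was lower in both knock-in libraries without passing the threshold. It had 5.75 and 5.89 CPM in knock-in libraries, against 9.12 and 12.8 CPM in wild-type libraries. Both knock-in values were alike and lay below both wild-type values, which differed from each other. Nnat (ENSMUSG00000067786, chromosome 2, 157560078 to 157562522) averaged 5.82 ± 0.099 CPM in knock-in cells and 10.9 ± 2.58 CPM in wild-type cells (SD, n = 2 each). On the log2 scale the fold change was -0.91 (SE 0.24, 95% interval -1.45 to -0.37, edgeR unadjusted p = 0.00404, adjusted p = 0.270).

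Leaving out either wild-type library brought Nnat past the threshold. In the fit lacking wild-type 1 its log2 fold change was -1.13 (adjusted p = 3.78e-07 in edgeR), where the same fit called 32.1% of all genes. Lacking wild-type 2 it was -0.66 (adjusted p = 0.0449 in edgeR), where 4.39% were called. It did not pass when knock-in 1 or knock-in 2 was left out (adjusted p = 0.940 and 0.778 in edgeR), fits that called 0.107% and 0.0990% of genes. Nnat transcripts are rich in GC (58.6%), and with the GC offset the log2 fold change was -0.65 (SE 0.18, 95% interval -1.04 to -0.26, adjusted p = 0.102 in edgeR). With the offset it passed when wild-type 1 was left out (-0.77, adjusted p = 0.00387 in edgeR, 10% of genes called), and not when wild-type 2, knock-in 1 or knock-in 2 was (4.01%, 0.592% and 0.390% of genes called). With the offset the scaled values were 6.31 and 6.36 CPM in knock-in libraries and 9.13 and 10.8 CPM in wild-type libraries, still without overlap.

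Nnat lies within an intron of Blcap, on the opposite strand, and the values of its host overlapped between the lines. Blcap, a gene first described in bladder cancer and itself imprinted in the brain, had 25.2 and 23.4 CPM in knock-in libraries and 23.1 and 26.97 CPM in wild-type libraries. The log2 fold change was -0.04 (SE 0.18, adjusted p = 0.940 in edgeR). Within each library the ratio of Nnat counts to Blcap counts needs no scaling for library size. It was 0.228 and 0.252 in knock-in libraries, against 0.394 and 0.473 in wild-type libraries. The ratio is not corrected for GC, and Nnat transcripts hold 58.6% GC against 52.2% for Blcap. The GC trend of wild-type 2 can therefore enter its value of 0.473. The exons of the 2 genes do not overlap in the annotation, but with libraries that do not mark strand, unspliced Blcap reads over Nnat cannot be told apart from Nnat reads.

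Impact was higher in both knock-in libraries, again without passing. Its values were 254 and 229.6 CPM in knock-in libraries, against 180.5 and 152 CPM in wild-type libraries. Both knock-in libraries lay above both wild-type libraries. Impact (ENSMUSG00000024423, chromosome 18, 12955852 to 12992950) averaged 242 ± 17.1 CPM in knock-in and 166 ± 19.96 CPM in wild-type cells (SD, n = 2 each), with a log2 fold change of 0.54 (SE 0.15, 95% interval 0.19 to 0.89, edgeR unadjusted p = 0.00675, adjusted p = 0.306).

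Impact transcripts are poor in GC (42.1%), and with the GC offset the log2 fold change was 0.33 (SE 0.13, 95% interval 0.06 to 0.60, adjusted p = 0.207 in edgeR). The scaled values with the offset were 239.8 and 209.6 CPM in knock-in libraries and 164 and 195 CPM in wild-type libraries, again without overlap. Impact passed without wild-type 1 (log2 fold change 0.67, adjusted p = 3.70e-08 in edgeR, 32.1% of genes called) and without wild-type 2 (0.41, adjusted p = 0.00807, 4.39% of genes called), but not when either knock-in library was left out. Leaving out wild-type 1 under the GC offset gave 0.21 (adjusted p = 0.375 in edgeR), and leaving out wild-type 2 gave 0.47 (adjusted p = 0.0206). The gene beside it on chromosome 18, Osbpl1a, which encodes an oxysterol-binding protein, had 86.4 and 84.4 CPM in knock-in libraries and 77.2 and 60.0 CPM in wild-type libraries, a log2 fold change of 0.32 with SE 0.17 (edgeR, adjusted p = 0.501). With the GC offset the log2 fold change of Osbpl1a was 0.28 (SE 0.11), beside 0.33 for Impact. The ratio of Impact to Osbpl1a counts within a library was 2.94 and 2.72 in knock-in libraries and 2.34 and 2.54 in wild-type libraries. That ratio is not corrected for GC, and Osbpl1a transcripts hold 46.6% GC against 42.1% for Impact. A rise of Impact beyond that of Osbpl1a was not tested. The other neighbour, the histamine receptor gene Hrh4, had at most 1 count in a library. Among partners of the protein, the GCN2 kinase gene Eif2ak4 had a log2 fold change of 0.0034 (SE 0.16).

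Zdbf2 separated the wild-type libraries more than the lines. It had 132 and 157 CPM in knock-in libraries, against 141 and 94.99 CPM in wild-type libraries. The groups overlapped, with wild-type 2 the low one. Zdbf2 (ENSMUSG00000027520, chromosome 1, 63273265 to 63314576) had a log2 fold change of 0.29 (SE 0.20, 95% interval -0.16 to 0.75, adjusted p = 0.576 in edgeR). Without wild-type 1 it passed (0.61, adjusted p = 8.53e-07 in edgeR, in the fit that called 32.1% of genes), and without wild-type 2 the value was 0.02 (adjusted p = 0.940). With the GC offset Zdbf2 had 125 and 144 CPM in knock-in libraries and 128 and 121 CPM in wild-type libraries, and the log2 fold change was 0.11 (SE 0.12).

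Neighbours of Zdbf2 on chromosome 1 did not pass the threshold. Adam23, an integrin-binding ADAM family gene, had 117.5 and 136.5 CPM in knock-in libraries and 109 and 115 CPM in wild-type libraries (log2 fold change 0.18, SE 0.15). The noncoding RNA Platr12, which overlaps the upstream RefSeq start window of Zdbf2, had 2.30 and 2.30 CPM in knock-in libraries and 2.14 and 2.77 CPM in wild-type libraries (log2 fold change -0.09, SE 0.30). Gpr1, a chemerin receptor gene, had 6 and 7 counts in knock-in libraries and 9 and 7 counts in wild-type libraries and was not tested.

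In the Peg3 domain on proximal chromosome 7, Peg3, Usp29 and Zim1 showed no difference beyond the spread between replicates. Peg3 (ENSMUSG00000002265, chromosome 7, 6703892 to 6730431) had 44.8 and 53.2 CPM in knock-in libraries, against 51.6 and 41.0 CPM in wild-type libraries. The groups overlapped. The log2 fold change was 0.08 (SE 0.18, 95% interval -0.33 to 0.49, adjusted p = 0.886 in edgeR), and 0.05 (SE 0.12, 95% interval -0.22 to 0.31) with the GC offset, so a change of the size of that in Nnat lies outside the interval.

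Usp29, a gene for a ubiquitin-specific protease, shares the short stretch printed above with Peg3 and had little RNA. Its counts were 25 and 8 in knock-in libraries and 27 and 13 in wild-type libraries. On these counts Peg3 stood, per length of exon, 91.4-fold above Usp29 in knock-in cells and 80.0-fold above it in wild-type cells. Both folds may be too high, because reads of Usp29 were set aside. The log2 fold change of Usp29 was -0.09 (SE 0.54, 95% interval -1.31 to 1.13, adjusted p = 0.959 in edgeR), a wide interval on either side of 0. The counts are also incomplete: 14.8% of the exon bases of Usp29 are shared with other annotated genes, 2582 of them with the antisense gene Zim3, and reads there are set aside as ambiguous. The strand-specific columns, which keep them, sum to 54 and 57 in knock-in libraries and 102 and 54 in wild-type libraries, and hold any reads of Zim3 too.

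Zim1, another zinc finger gene, had 29 and 17 counts in knock-in libraries and 42 and 13 counts in wild-type libraries. The wild-type libraries enclosed the knock-in ones. The difference on the log2 scale was -0.03 (SE 0.50, 95% interval -1.16 to 1.11, adjusted p = 0.988 in edgeR), and leaving out wild-type 1 gave 0.84 where leaving out wild-type 2 gave -0.54. Zfp264, a zinc finger gene at the far end of the domain that is reported as paternally expressed, was also counted. It had 9.73 and 12.3 CPM in knock-in libraries and 13.5 and 13.6 CPM in wild-type libraries, a log2 fold change of -0.30 with SE 0.21 (edgeR, adjusted p = 0.572). Zim2 and Zim3 held at most 1 count in a library. For Zim3, 2582 of its 3755 exon bases are shared with Usp29 and reads there were set aside, so its RNA may be undercounted.

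**Figure D3:**
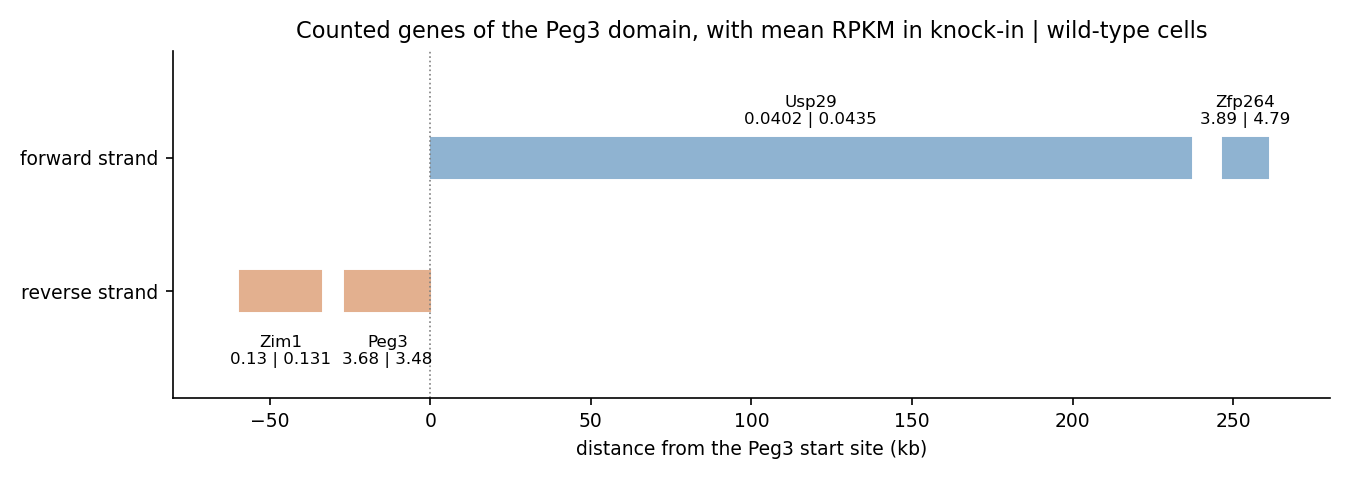
Genes of the Peg3 domain that were counted, placed by distance from the Peg3 start site in kilobases, with the forward strand above the reverse strand and the mean RPKM in knock-in cells, then in wild-type cells, beside each name. Peg3 and Zfp264 have the higher levels of the 4, and Usp29, which starts beside Peg3, has 0.0402 RPKM in knock-in and 0.0434 RPKM in wild-type cells.

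Snrpn, Ndn and Magel2 belong to the imprinted cluster on chromosome 7 that matches the human Prader-Willi region, and none of them showed a difference past the threshold with all libraries. Snrpn (ENSMUSG00000102252, chromosome 7, 59982495 to 60140219) had 15.8 and 15.3 CPM in knock-in libraries, against 15.3 and 16.9 CPM in wild-type libraries. The groups overlapped. The log2 fold change was -0.05 (SE 0.18, 95% interval -0.46 to 0.37, adjusted p = 0.936 in edgeR). Of its exon bases 34.1% are shared with other annotated genes, 589 with Gm38393 and 216 with Snurf on the same strand, so part of its reads was set aside as ambiguous. Snurf, whose coding sequence lies on the same transcript, is listed at 0 in all 4 libraries. All of its 216 exon bases are shared with Snrpn, so its reads were set aside and the 0 does not measure its RNA. Gm38393 had 83 and 120 counts in knock-in libraries and 135 and 29 counts in wild-type libraries.

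Ndn encodes necdin, a MAGE family protein that restrains cell growth in neurons. It had 2.30 and 2.78 CPM in knock-in libraries, against 3.09 and 4.22 CPM in wild-type libraries. Both knock-in values lay below both wild-type values. Ndn (ENSMUSG00000033585, chromosome 7, 62346569 to 62350262) had a log2 fold change of -0.52 (SE 0.30, 95% interval -1.19 to 0.15, adjusted p = 0.512 in edgeR), and -0.66 (SE 0.31, adjusted p = 0.282 in edgeR) with the GC offset. Leaving out wild-type 1 gave -0.74 and leaving out wild-type 2 gave -0.30, and with the GC offset and without wild-type 1 it passed (-1.04, adjusted p = 0.0172 in edgeR), in the fit that called 10% of genes.

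Magel2, a MAGE family gene whose protein works with the ubiquitin ligase TRIM27 in endosomal recycling, lies beside Ndn and was close to the limit of detection. It had 12 and 6 counts in knock-in libraries, against 5 and 4 counts in wild-type libraries. Summed over a line that is 18 counts in knock-in cells (exact Poisson 95% interval 10.7 to 28.4) and 9 counts in wild-type cells (4.12 to 17.1). The intervals overlap, and they cover counting error only. Without the count filter its log2 fold change was 1.14 (SE 0.88, adjusted p = 0.831 in edgeR). A difference in Magel2 was not detectable at this depth.

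Ube3a and Snhg14, of the same cluster, had their lowest values in wild-type 2. Ube3a, the ubiquitin ligase gene of Angelman syndrome, had 51.6 and 57.9 CPM in knock-in libraries, against 47.6 and 21.98 CPM in wild-type libraries. The long noncoding RNA Snhg14, which runs antisense into Ube3a and silences its paternal copy in neurons, had 8.87 and 13.1 CPM in knock-in libraries, against 11.8 and 3.50 CPM in wild-type libraries. Transcripts of both are poor in GC (36.9% for Ube3a and 31.0% for Snhg14). The log2 fold change of Ube3a was 0.65 (SE 0.30, adjusted p = 0.466 in edgeR), or 0.31 with the GC offset, and that of Snhg14 was 0.50 (SE 0.46, adjusted p = 0.673 in edgeR), or -0.01 with the offset. Because the counts hold no strand, reads where the genes overlap were set aside.

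Nap1l5, an intronless gene for a nucleosome assembly protein-like protein within an intron of the ubiquitin ligase gene Herc3, had few reads. Its counts were 19 and 8 in knock-in libraries and 25 and 18 in wild-type libraries. After scaling, 0.780 and 0.428 CPM in knock-in libraries lay below 0.908 and 0.817 CPM in wild-type libraries, the lines being separated by less than the knock-in libraries were from each other. Nap1l5 (ENSMUSG00000055430, chromosome 6, 58905233 to 58907076) had a log2 fold change of -0.48 (SE 0.48, 95% interval -1.57 to 0.61, adjusted p = 0.702 in edgeR), and 0.19 with reads of the reverse-strand column alone. Herc3 had 18.5 and 18.7 CPM in knock-in libraries and 21.7 and 20.7 CPM in wild-type libraries, a log2 fold change of -0.19 (SE 0.17).

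**Figure D4:**
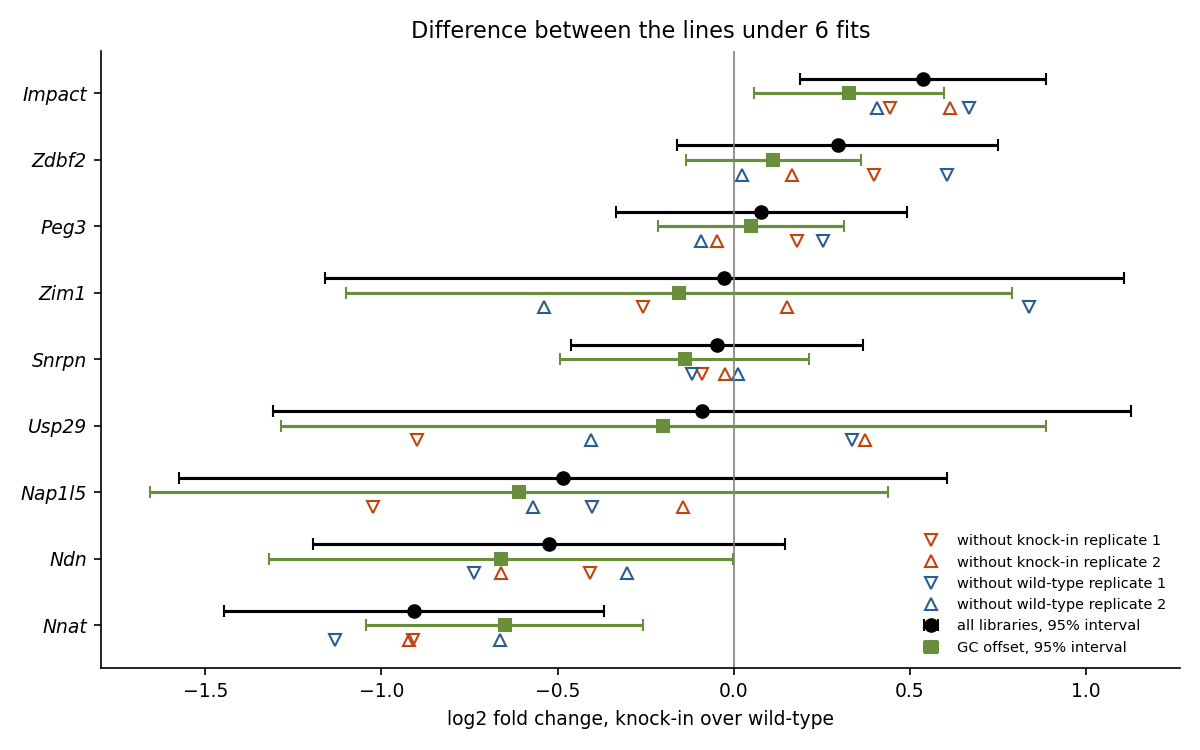
Log2 fold change, knock-in over wild-type, of the 9 tested genes with all libraries (black) and with the GC offset (green), with 95% intervals, and without each library in turn (open triangles). Nnat, Ndn and Nap1l5 stay below 0 and Impact and Zdbf2 above 0 in all 6 fits, while Peg3, Usp29, Zim1 and Snrpn lie on either side of 0.

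Other imprinted genes were read from the same fit. Of 17 tested genes in a list of other paternally expressed genes, 2 passed as lower and none as higher, where 0.0592% of all tested genes were called lower. Those were Mest, with 10.2 and 8.46 CPM in knock-in libraries and 41.0 and 54.3 CPM in wild-type libraries, and Plagl1, with 1.72 and 1.82 CPM in knock-in libraries and 11.6 and 8.36 CPM in wild-type libraries. The median log2 fold change of that list was -0.30, and its members of highest CPM, Peg10 and Slc38a4, had values of -0.09 (SE 0.16) and -0.01 (SE 0.16). Of 19 tested maternally expressed genes, Grb10 passed as higher, where 0.00658% of all tested genes were called higher, with 589 and 594 CPM in knock-in libraries and 107 and 118 CPM in wild-type libraries. The median of the maternal list was 0.12, and its member Igf2r had a log2 fold change of -0.21 (SE 0.15). Sgce (-1.40, adjusted p = 0.0262 in edgeR) also passed as lower in the paternal list with the GC offset and Phlda2 (1.21, adjusted p = 0.000436 in edgeR) as higher in the maternal list, where 0.863% of genes were called lower and 0.343% higher. The lists share Mkrn3, Peg12, Zfp264, Ube3a, Atp10a, Blcap and Zim2 with the neighbours. Of 11 tested neighbours in the domains of the 10 genes, none passed, where 0.0658% of all tested genes did. Their median was -0.04, and their values ran from -0.66 to 0.65.

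**Figure D5:**
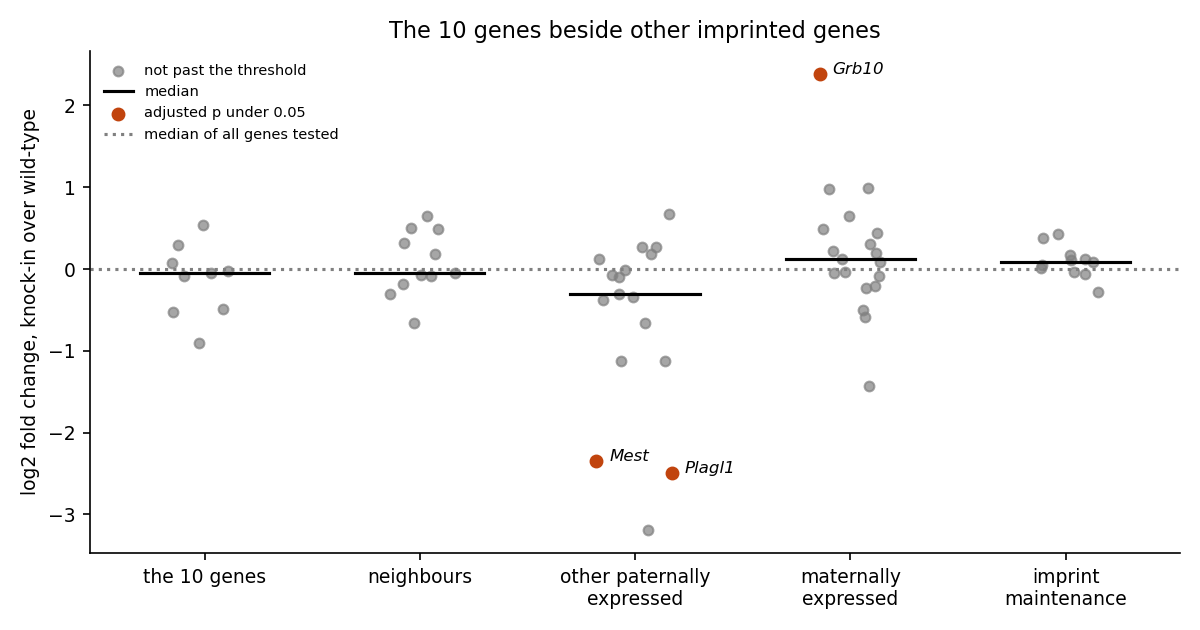
Log2 fold change, knock-in over wild-type, of every tested gene in 5 lists, with horizontal bars at the medians and a dotted line at the median of all tested genes. The 10 genes (9 tested) and their neighbours hold no called gene, and Mest, Plagl1 and Grb10 are the called genes in the other imprinted lists.

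Genes that maintain imprints did not pass either. The 11 tested included Zfp57, Zfp445, the DNA methyltransferases and the TET dioxygenases Tet1 and Tet2, and their median log2 fold change was 0.09. None passed, close to the share of all tested genes that did, 0.0658%. The highest CPM were those of Trim28, the corepressor that ZFP57 recruits, with 2942 and 2737 CPM in knock-in libraries and 2464 and 3359 CPM in wild-type libraries, and Uhrf1, which guides maintenance methylation, with 999 and 974 CPM in knock-in libraries and 865 and 1099 CPM in wild-type libraries. The groups overlapped for both. Zfp57 itself had 370.2 and 409 CPM in knock-in libraries and 356 and 337 CPM in wild-type libraries, a log2 fold change of 0.17 with SE 0.14 (edgeR, adjusted p = 0.648).

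Paralogs and partners of the encoded proteins held no call among 20 tested, where 0.0658% of all tested genes were called. Their median log2 fold change was 0.07. Nap1l1, a nucleosome assembly gene related to Nap1l5, had 831 and 760 CPM in knock-in libraries and 706 and 474 CPM in wild-type libraries (log2 fold change 0.43, SE 0.20, adjusted p = 0.459 in edgeR). With the GC offset the log2 fold change of Nap1l1 was 0.15 (SE 0.13). Atp2a2, the calcium pump gene whose protein neuronatin is reported to bind, had a log2 fold change of 0.05 (SE 0.14). Snrpb, the splicing gene related to Snrpn, had 309 and 284 CPM in knock-in libraries and 245 and 377 CPM in wild-type libraries. The ratio of Snrpn counts to Snrpb counts was 0.0510 and 0.0539 in knock-in libraries and 0.0623 and 0.0448 in wild-type libraries, again overlapping. Reads that align to more than 1 place were not counted.

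Since Nnat, Ndn and Magel2 are prominent in neurons and mesenchyme, markers of other cell types were read beside them. Of 9 neuronal markers, Dcx was at 0 in all libraries and Snap25 and Syt1 were too low to test. Their summed level, mostly Stmn2 and Tubb3, was 464 and 423 CPM in knock-in libraries and 412 and 474 CPM in wild-type libraries, and the lines overlapped. The 8 fibroblast and feeder markers, led by Thy1 and Pdgfrb, summed to 22.2 and 23.9 CPM in knock-in libraries and 36.0 and 39.2 CPM in wild-type libraries, and all 4 that could be tested were lower in both knock-in libraries, as were 23.9% of all tested genes, with Lum at 0 in every library and Dcn at 1 count over all libraries. Their direction is that of Nnat and Ndn. Magel2, close to the limit of detection, went the other way, with 12 and 6 counts in knock-in and 5 and 4 counts in wild-type libraries. What part these markers have in the values of the 3 genes was not tested. In bulk RNA, fewer cells of a type and less RNA per cell cannot be told apart. The 6 endoderm markers, led by Amn and Gata6, summed to 4.39 and 4.28 CPM in knock-in libraries and 6.54 and 7.27 CPM in wild-type libraries, with Afp at 0. Of these, Amn had 1.60 and 1.71 CPM in knock-in libraries and 3.78 and 4.404 CPM in wild-type libraries, while Gata4 and Gata6 overlapped between the lines. The 5 trophoblast markers, mostly Tfap2c and Hand1, summed to 49.5 and 47.5 CPM in knock-in libraries and 36.8 and 36.9 CPM in wild-type libraries, with Elf5 at 0 in both knock-in libraries. Tfap2c alone had 47.4 and 44.7 CPM in knock-in libraries and 34.2 and 34.9 CPM in wild-type libraries. It did not pass in the main fit (log2 fold change 0.42, adjusted p = 0.430 in edgeR). With the GC offset it passed (log2 fold change 0.57, adjusted p = 0.0334 in edgeR), where 0.343% of genes were called higher. Krt7 was lower in both knock-in libraries, as were 23.9% of all tested genes, on 6 and 6 counts against 23 and 10 in wild-type libraries. Cdx2 and Elf5 were lower too, but with at most 3 counts in a library they were too low to test and give no direction.

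The profiles of Peg3 and Snrpn over the 4 libraries were shared by many genes. By the smallest root mean square difference of log2 CPM centred on each gene's mean, among 8950 genes of at least 10 CPM, the nearest to Peg3 were Lrig2 (0.0075), Mib1 (0.0084) and Zfp369 (0.011). Those nearest to Snrpn were Ldha (0.0012), Actr1a (0.0060) and Fam189b (0.0070). A difference under 0.1 was found for 636 genes with Peg3 and for 2252 genes with Snrpn, so this likeness sets neither profile apart.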

How the data were processed

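Per the submitters' processing notes, the authors trimmed reads with Trim Galore and aligned them with STAR 2.5.3a to GRCm38 (mm10). Each deposited table holds raw read counts per gene, while no source used here names the annotation release. Of 54838 identifiers, 54809 matched GENCODE M21, and the other 29 held 0.00107% of the counts. The summary rows, left out of library sizes, held unmapped reads (2.38% to 4.39%), multimapping reads (3.80% to 4.46%), reads outside features (2.23% to 3.67%) and ambiguous reads (5.96% to 6.38%). The reverse-strand column held 50.2% to 50.5% of stranded counts, so the unstranded column was used.

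Counts were scaled by TMM, filtered with filterByExpr (minimum count 10) and tested with edgeR 4.0.16 (R 4.3.3) by the quasi-likelihood F test on genotype alone, adjusted by the Benjamini-Hochberg method over all 15191 genes at a threshold of 0.05. Each SE was computed as the size of the log2 fold change over the root of its F value. RPKM uses GENCODE exon length. The GC offset is a natural spline (5 degrees of freedom) of each library's log2 CPM deviation on transcript GC content. DESeq2 1.42.0, other scalings and filters, left-out libraries, the reverse strand and a replicate block were alternatives. The main fit and the GC offset were tested on simulated data with the same spread in every library. Unlike spread between the pairs and fits with a library left out were not simulated.

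The 10 genes, the lists and the alternatives were chosen with earlier results of these data known. Named are all 10 genes, the neighbours that overlap or host them, list members past the threshold, the 2 most abundant of each list, and the 3 genes nearest to Peg3 and to Snrpn. Other genes named beside them, such as Zfp57, Eif2ak4 and Snrpb, were named after their values were seen. Of 20 annotated genes that overlap a member, 17 held at most 2 counts in a library and are not described singly.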

Additional observations from a re-analysis of the deposited data

How the results depend on the processing

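With all libraries 10 genes passed and none of the 10 imprinted genes did. DESeq2 size factors and reverse-strand reads alone gave 13 and 11 genes. The count was 354 without a filter on low counts, 6 with a minimum count of 50, 82 with DESeq2, 183 with the GC offset, and 16 to 5015 with a library left out. The highest counts came when wild-type 1 (5015) or wild-type 2 (711) was left out. With the GC offset, leaving out wild-type 1 gave 1567, wild-type 2 gave 648, knock-in 1 gave 94 and knock-in 2 gave 63. Such fits estimate the spread from the complete pair and assume that the lone library varies likewise. Of the 10 imprinted genes, 1 passed without a filter on low counts (Nnat, edgeR adjusted p = 0.0209) and 0 to 3 with a library left out. With the GC offset, leaving out wild-type 1 gave log2 fold changes of -0.77 for Nnat and -1.04 for Ndn. Leaving out wild-type 2 gave 0.47 for Impact. The cause of these shifts was not tested.

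The deviations of same-numbered libraries had a weak negative correlation (-0.18 over 8951 genes, and -0.22 over 8936 genes with the GC offset). The numbers were therefore not taken to pair the samples. With the replicate number as a block 197 genes passed, and 407 with the GC offset as well, and none of the 10 passed in either. Crossing the pairing, added after the data were seen, gave 509 of the 15191 tested genes, 1 of them among the 10 (Nnat, log2 fold change -0.90).

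Of 150 alternative values of single genes, 123 kept their direction and side of the threshold, 10 passed where the main value did not, and 17 changed sign, none of them past the threshold. Without each library, log2 fold changes ran from -0.093 to 0.25 for Peg3, -0.90 to 0.37 for Usp29, -0.54 to 0.84 for Zim1 and -0.12 to 0.013 for Snrpn. With the GC offset too they ran from -0.043 to 0.16, -1.02 to 0.29, -0.47 to 0.41 and -0.35 to 0.10 in the same order. Zim1 was also above 0 with reverse-strand reads (0.60), DESeq2 (0.0018), the block (0.057), the crossed block (0.072) and, with the offset, without knock-in 2 (0.055), and Nap1l5 with reverse-strand reads (0.19). For Usp29, Zim1, Magel2 and Nap1l5, with under 50 counts in every library, depth limits what could be seen.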
